A study of Homo sapiens with 6 samples.

Results

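Clustered replication-dependent histone genes are the protein-coding genes that carry the older symbols HIST1H to HIST4H, and 71 of the 58735 genes in the deposited table met that rule by name and biotype. They comprised 6 linker histone H1 genes, 17 H2A, 18 H2B, 15 H3 and 15 H4 genes. Of these, 55 lay in the HIST1 cluster on chromosome 6, 12 in HIST2 and 3 in HIST3 on chromosome 1, and HIST4H4 lay alone on chromosome 12. Another 19 rows with such names had other biotypes and were left out of the set. The cells were SKM-1, an established line from a patient with acute myeloid leukaemia. They were kept in medium with fetal bovine serum and received either celastrol, a plant triterpenoid, or the solvent DMSO for 48 h, with 3 RNA sequencing libraries per treatment. Neither the dose, nor any selection of polyadenylated RNA, nor the strandedness of the libraries is given in the sources used here. No label says that libraries of one treatment were grown as separate cultures, so a p-value here measures the spread between libraries, which may be technical.

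These genes supply the histones that package newly copied DNA. Their mRNAs are made mainly in S phase, when cyclin E and CDK2 activate the coactivator NPAT at the clusters, and unlike other animal mRNAs they normally end without a poly(A) tail. The mRNA ends instead just after a short stem-loop, which the stem-loop binding protein SLBP holds and which guides cutting by the U7 snRNP. Some members can also be read through the stem-loop to a downstream polyadenylation site, above all in cells that leave the cycle or differentiate. HIST1H1C, HIST1H2AC, HIST1H2BD, HIST1H2BK and HIST2H2BE are known for such polyadenylated mRNAs.

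The stem-loop is shown because it is the feature that sets these mRNAs apart from others. GENCODE 29 transcripts of 31 of the 71 members contained a 16-base stem-loop, in 5 forms. They are printed as DNA from 5′ to 3′, with the 4-base loop in capitals between the arms of a stem of 6 pairs, 1 of which is a G:T pair in the last form:
Form in 17 members, among them HIST1H2AC, HIST1H3H and HIST3H2A: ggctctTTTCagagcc
Form in 5 members, among them HIST1H2BC and HIST1H2BD: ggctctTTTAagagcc
Form in 5 members, among them HIST1H4H and HIST4H4: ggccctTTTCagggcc
Form in 3 members, among them HIST1H4I: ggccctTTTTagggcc
Form in HIST1H2AG: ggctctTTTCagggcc
The forms whose first arm is ggccct were found in 8 H4 genes, and those with ggctct in H2A, H2B and H3 genes. In the other 40 members, HIST1H1C and HIST1H2BK included, the annotated transcript held no such sequence. The search itself required GG at the start, CC at the end and TTT in the loop, so the forms share these letters by design. No match says only that no sequence of this pattern is in the annotated transcript.

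Promoters are shown for a head-to-head pair in which both genes were higher, for the single decreased member and for the H3 gene of highest level. They come from RefSeq on GRCh38.p14, run 5′ to 3′ on the gene's strand from 250 bases before to 50 bases after the start, and have motif matches on either strand in capitals. The motifs searched were the TATA box TATAAA, the box of the letters CCAAT and the octamer ATTTGCAT. A match on the other strand appears as the reverse complement, and none of the motifs contains another.
HIST1H2BC (chr6:26123877-26124176, minus strand): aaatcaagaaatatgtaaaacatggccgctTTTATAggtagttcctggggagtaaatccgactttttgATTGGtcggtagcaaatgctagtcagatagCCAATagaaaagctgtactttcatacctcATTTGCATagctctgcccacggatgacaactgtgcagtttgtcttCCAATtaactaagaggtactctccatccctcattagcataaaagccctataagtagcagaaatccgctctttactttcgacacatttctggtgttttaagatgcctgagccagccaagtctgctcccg
HIST3H2A (chr1:228457824-228458123, minus strand): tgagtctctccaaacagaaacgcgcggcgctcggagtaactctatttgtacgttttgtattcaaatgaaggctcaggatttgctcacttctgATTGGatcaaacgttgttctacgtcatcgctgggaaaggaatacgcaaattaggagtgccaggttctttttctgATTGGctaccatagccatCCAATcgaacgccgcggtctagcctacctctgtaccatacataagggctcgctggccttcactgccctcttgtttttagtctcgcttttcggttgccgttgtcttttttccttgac
HIST1H3H (chr6:27809801-27810100, plus strand): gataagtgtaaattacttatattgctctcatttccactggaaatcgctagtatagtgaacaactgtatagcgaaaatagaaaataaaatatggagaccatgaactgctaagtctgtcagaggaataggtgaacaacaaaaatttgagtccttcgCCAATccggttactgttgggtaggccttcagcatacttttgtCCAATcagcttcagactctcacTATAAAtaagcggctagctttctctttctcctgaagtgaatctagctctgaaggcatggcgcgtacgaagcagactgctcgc
The HIST1H2BC window reaches into HIST1H2AC, which is transcribed the other way from 219 bases away. The HIST3H2A window likewise reaches into HIST3H2BB, 234 bases away. A RefSeq promoter could be matched to 65 members. TATAAA stood in 67.7% of these, against 11.5% of all 35116 promoters in the table. CCAAT stood in 84.6% against 34.6%, in every matched H1, H2A, H2B and H3 promoter but in only 3 of 13 H4 promoters. The octamer stood in 11 of 16 H2A and 13 of 17 H2B promoters, in none of the matched H1, H3 and H4 promoters, and in 1.77% of all promoters. The HIST1H2BC window held all 3 motifs, HIST1H3H held TATAAA and CCAAT, and HIST3H2A held CCAAT alone of the 3. The TATAAA match of the HIST1H2BC window lies on the other strand only, close before the start of HIST1H2AC. Matches on either strand were counted, so a window that reaches a neighbour's start can hold letters of the neighbour's promoter. A match is a description of the letters and not a measured site.

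Reads recovered from the deposited FPKM (fragments counted per kilobase of a gene and relative to a library total) came to 13549187 to 16231066 per library over all genes, and member genes held 0.184% to 0.221% of them with celastrol and 0.144% to 0.156% with DMSO. Reads of mitochondrial genes moved with treatment too, at 1.37% to 1.85% with celastrol and 5.44% to 5.65% with DMSO. The 6 libraries were distinct, and those of a treatment were closer to each other than to the other treatment. Below, a level given as 1 value against another is the mean ± SD of the 3 celastrol libraries against that of the 3 DMSO libraries. Of all genes tested, 15.3% were higher and 14.2% lower, and the marker lists are too short for a share to be read. Of the 10 leukocyte and myeloid markers, 5 were tested, 2 fell and 0 rose. Those that fell were KIT (1.05 ± 0.0948 against 5.28 ± 0.18 FPKM) and LYZ (17.6 ± 1.13 against 38 ± 1.3 FPKM). SPI1 and PTPRC (log2 fold changes 0.33 and 0.23) and CD33 (-0.14) did not pass. Summed FPKM of the list was 55.4 to 60.9 with celastrol and 73.2 to 79.8 with DMSO, and CD34 had no reads. Of 8 erythroid markers 7 were tested, 4 fell and 0 rose. Among those that fell were KLF1 (log2 fold change -1.25), EPOR (-0.70) and GATA1 (-0.52). RHAG (0.15, groups that did not overlap), HBG2 (0.29) and TFRC (0.024) had positive log2 fold changes that did not pass. The list sums were 636 to 700.2 and 706 to 769. After rescaling each library to the same total, 2 leukocyte and myeloid markers were higher and 2 lower. Of the erythroid markers 1 was then higher and 4 lower. On that scale 41.5% of all genes tested were higher and 6.41% lower. Lymphoid genes summed to 2.65 to 2.70 and 1.62 to 2.37 FPKM, with MS4A1 at 0 reads and CD79A at 0.271 ± 0.0648 against 0.202 ± 0.148 FPKM. Epithelial and stromal genes summed to 264 to 298 and 245 to 296, of which VIM gave 267 ± 16.6 against 240.1 ± 23.6 FPKM and EPCAM, which fell, 15.6 ± 0.744 against 32 ± 1.79 FPKM; CDH1, COL1A1, COL1A2 and PDGFRB had at most 11 reads in any library. The leukocyte marker PTPRC was found in every library at 14.8 ± 0.983 against 12.7 ± 1.38 FPKM. Whether any shift in cell make-up had a part in the histone results was not tested, and in bulk RNA fewer cells of a type cannot be told apart from less RNA per cell.

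Of the tested histone genes of the HIST1 cluster 14 of 32 were higher after celastrol and none lower, while HIST3H2A, on chromosome 1, was lower. The test was limma on log2(FPKM + 0.1), for genes with a mean of at least 1 FPKM and with Benjamini-Hochberg adjustment over all 12685 genes tested at 0.05. Of the 71 members 40 were tested: 15 were higher with celastrol (37.5%), 1 was lower (2.5%) and 24 passed in neither direction. Over all genes tested, 15.3% were higher and 14.2% lower. The 3 celastrol values all lay above the 3 DMSO values for 18 tested members and all below for 1, where these shares over all genes were 25.3% and 22.0%. The median log2 fold change was 0.38 over the tested members, 29 positive and 11 negative, and 0.023 over all genes tested. The other 31 members fell under the minimum, so these counts do not describe the whole set.

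**Figure D1:**
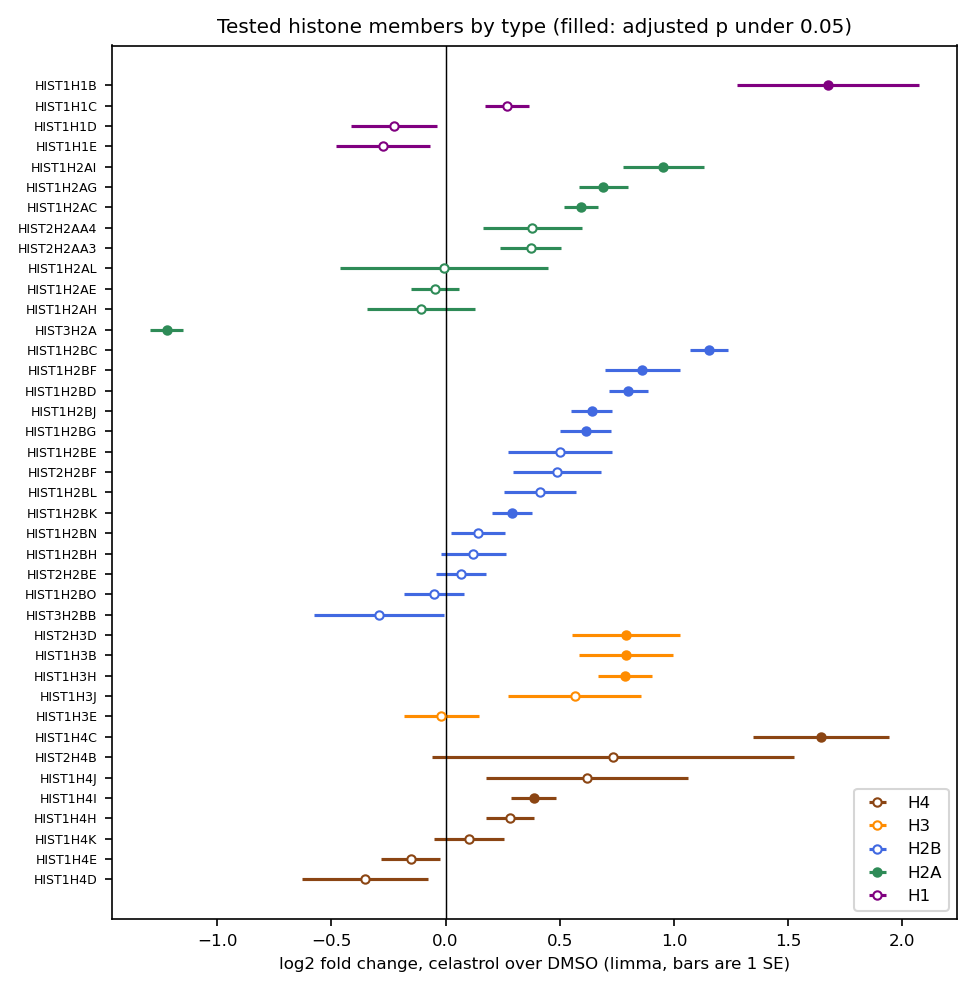
Log2 fold change of celastrol over DMSO for the 40 tested histone genes, coloured by histone type, with bars of 1 SE from limma and filled points for an adjusted p under 0.05. Filled points lie to the right of 0 in each type, and HIST3H2A at -1.22 is the single filled point to the left.

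Summed over all 71 genes, histone reads per 1000000 listed reads (RPM) were 2207, 2054 and 1842 in celastrol libraries 1 to 3 and 1437, 1557 and 1438 in DMSO libraries 1 to 3. All 3 celastrol sums lay above all 3 DMSO sums, the mean was 1.38-fold higher, and celastrol library 1 was the highest and library 3 the lowest of its group. Scaled to nuclear reads, which leaves the mitochondrial genes out of the total, the log2 difference was 0.40 in place of 0.46. By type, the sums were 472 ± 57.1 against 366 ± 22.5 for H1 (mean ± SD, n = 3 each), 455 ± 16 against 341 ± 20 for H2A and 720.4 ± 68.7 against 513 ± 9.59 for H2B. For H3 they were 172 ± 28.1 against 95.5 ± 6.8 and for H4 214 ± 16.3 against 162 ± 19.6. The groups did not overlap for any of the 5 types, and the fold was 1.29 for H1, 1.33 for H2A, 1.4 for H2B, 1.8 for H3 and 1.32 for H4. These sums are weighted towards the most abundant genes and carry no test. In celastrol library 1, HIST1H1C, which was not called, held 8010 of 8107 H1 reads, and HIST1H3H held 2568 of 2963 H3 reads. Sums of deposited FPKM gave folds of 1.21 for H1, 1.17 for H2A, 1.29 for H2B, 1.7 for H3 and 1.22 for H4.

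**Figure D2:**
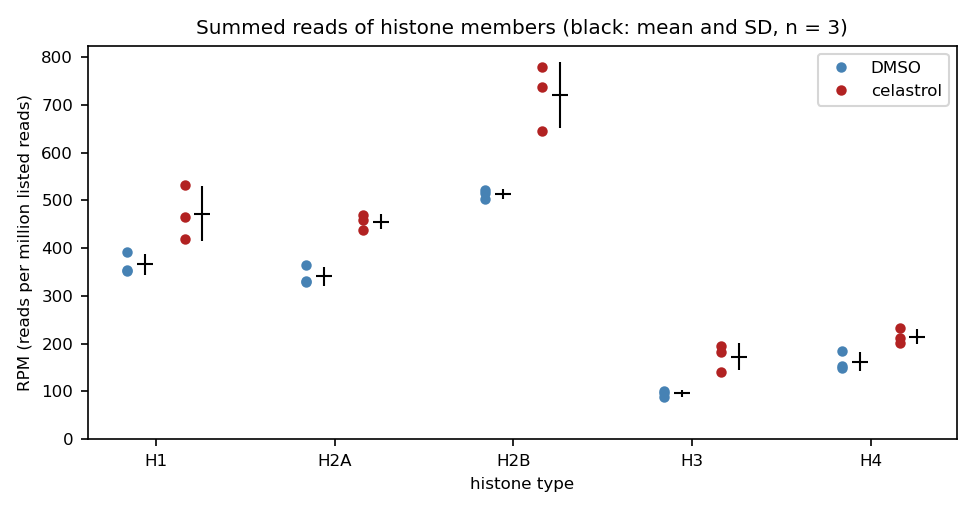
Summed reads of all member genes of each histone type in RPM, 1 point per library, with the mean and SD of each treatment (n = 3) in black. The celastrol points lie above the DMSO points for every type, from 532 against 392 at the top of H1 to 195 against 101 at the top of H3.

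H1 linker histones bind the DNA between nucleosomes. HIST1H1C (ENSG00000187837, chr6:26055787-26056428), an H1 gene known for a polyadenylated form, had the most reads of all members. It stood at 791, 679 and 619.8 FPKM in celastrol libraries 1 to 3 and 559, 602 and 565 in DMSO libraries 1 to 3. The groups did not overlap, yet the difference did not pass the test (log2 fold change 0.27, SE 0.10, limma adjusted p = 0.0737). HIST1H1B, another linker histone gene, was at 1.77, 1.77 and 1.92 FPKM with celastrol and 0.408, 0.982 and 0.296 with DMSO, from 19, 20 and 22 reads and 4, 9 and 3 reads. It was higher with celastrol (log2 fold change 1.67, SE 0.40, limma adjusted p = 0.018), but it rests on few reads and lost the call when any 1 of the 3 celastrol libraries was left out, with adjusted p up to 0.0632. HIST1H1E (2.92 ± 0.49 against 3.6 ± 0.981 FPKM) and HIST1H1D (2.49 ± 0.348 against 2.97 ± 0.653 FPKM), with log2 fold changes of -0.27 and -0.23, did not pass (limma adjusted p = 0.35 and 0.395).

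H2A genes, whose product pairs with H2B in the nucleosome core, split in direction. HIST1H2AC (ENSG00000180573, chr6:26124145-26139116) gave 144, 147 and 155 FPKM with celastrol and 95, 107 and 94.3 with DMSO, 1.51-fold higher (log2 fold change 0.59, SE 0.075, limma adjusted p = 0.00155). HIST1H2AI was at 114, 91.6 and 65.2 FPKM with celastrol and 45.3, 44.6 and 46.3 with DMSO (log2 fold change 0.95, SE 0.18, limma adjusted p = 0.00721). HIST1H2AG was at 39.5, 39 and 31 FPKM with celastrol and 20.8, 23.7 and 22.9 with DMSO (log2 fold change 0.69, SE 0.11, limma adjusted p = 0.00364). For these 3 genes the groups did not overlap, and HIST1H2AI spread most within celastrol, with library 1 highest and library 3 nearest to the DMSO values. Other genes' transcripts share 62.3% of the 50-base windows of HIST1H2AI, so a read lying wholly in shared sequence cannot be placed in a single copy with certainty.

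HIST3H2A (ENSG00000181218, chr1:228456979-228457873) went the other way. It was at 45.8, 40 and 44.6 FPKM in the celastrol libraries and 103, 102 and 99.7 in the DMSO libraries, from 595 to 1326 reads each. The groups were far apart beside their spread (43.5 ± 3.05 against 101 ± 1.47 FPKM; SD, n = 3 each), 2.33-fold lower with celastrol (log2 fold change -1.22, SE 0.072, limma adjusted p = 8.91e-05). It kept its call in all 16 other settings tried, with a log2 fold change between -1.26 and -0.98. Of its 50-base windows 0.591% occur in another gene's transcripts. The 3 HIST3 genes together summed to 47.2, 42.9 and 44.4 RPM with celastrol and 93.4, 97.4 and 89.5 with DMSO, nearly all of it HIST3H2A.

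The remaining tested H2A genes did not pass. HIST1H2AE was at 34.9, 26.7 and 27.8 FPKM with celastrol and 29.3, 30.5 and 31.8 with DMSO, overlapping groups, with a log2 fold change of -0.046 (SE 0.11). HIST2H2AA3 (3.48 ± 0.555 against 2.64 ± 0.0984 FPKM, limma adjusted p = 0.0728) and HIST2H2AA4 (3.12 ± 0.764 against 2.37 ± 0.533 FPKM, 0.218) are near-identical copies. Of their windows, 100% and 97.1% occur in other genes' transcripts. Their summed level was 6.61 ± 1.21 against 5.02 ± 0.469 FPKM. HIST1H2AH (4.21 ± 1.3 against 4.44 ± 0.767 FPKM, log2 fold change -0.11) and HIST1H2AL (1.57 ± 0.859 against 1.43 ± 0.45 FPKM, -0.0076, as few as 4 reads in a library) overlapped between groups.

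H2B had the most tested members, 14, of which 6 were higher and none lower, where 15.3% and 14.2% of all genes tested were. HIST1H2BK (ENSG00000197903, chr6:27146418-27146798) had the highest level per length of all members, at 929, 864 and 772 FPKM with celastrol and 738, 667 and 688 with DMSO. The groups did not overlap, but the change was small, 1.23-fold (log2 fold change 0.29, SE 0.087, limma adjusted p = 0.04), and the call was lost in 6 of 16 other settings (adjusted p up to 0.274), among them without celastrol replicate 1 or 2 and without DMSO replicate 2 or 3. The share of its windows found in other genes' transcripts was 74.1%. HIST1H2BC (ENSG00000180596, chr6:26114873-26123926) had a larger change from a lower level, with 37.7, 39.5 and 34.8 FPKM against 16.9, 15.4 and 17.9, 2.23-fold higher (log2 fold change 1.15, SE 0.084, limma adjusted p = 0.000171). Its 3 values in each group were tight beside the gap between the groups.

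HIST1H2BD was at 83.2, 72.6 and 68.4 FPKM with celastrol and 41.2, 44.4 and 42.6 with DMSO (log2 fold change 0.80, SE 0.086, limma adjusted p = 0.000797). HIST1H2BJ was at 77.3, 72.6 and 69.7 FPKM with celastrol and 51.8, 42.2 and 47 with DMSO (log2 fold change 0.64, SE 0.09, limma adjusted p = 0.0024). Both sat in 3 tight values per group with a clear gap between groups. HIST1H2BG was at 30.4, 27.3 and 24.1 FPKM with celastrol and 20.1, 17 and 16.3 with DMSO (log2 fold change 0.61, SE 0.11, limma adjusted p = 0.00668). HIST1H2BF was at 14.5, 13.1 and 9.15 FPKM with celastrol and 5.98, 6.77 and 7.03 with DMSO (log2 fold change 0.86, SE 0.16, limma adjusted p = 0.00794). For these 2 the lowest celastrol library was library 3, still above every DMSO library.

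HIST2H2BE, an abundant H2B gene in HIST2 that is known for a polyadenylated form, did not pass the test. Its values were 35.1, 31.2 and 26.2 FPKM with celastrol and 27.8, 29.8 and 30 with DMSO, overlapping groups (log2 fold change 0.067, SE 0.11, limma adjusted p = 0.673). Positive differences that did not pass were found for HIST2H2BF (4.3 ± 1.01 against 3 ± 0.459 FPKM; limma adjusted p = 0.0945), HIST1H2BL (5.1 ± 0.981 against 3.79 ± 0.543 FPKM; 0.0876) and HIST1H2BE (2.3 ± 0.331 against 1.63 ± 0.479 FPKM; 0.134). HIST1H2BN (6.67 ± 0.573 against 6.05 ± 0.817 FPKM) and HIST1H2BH (2.31 ± 0.13 against 2.13 ± 0.307 FPKM) had log2 fold changes of 0.14 and 0.12. HIST1H2BO (20.6 ± 3.72 against 21.1 ± 0.723 FPKM) and HIST3H2BB (1.6 ± 0.359 against 2.02 ± 0.733 FPKM) had log2 fold changes of -0.051 and -0.29, and neither passed (limma adjusted p = 0.797 and 0.475).

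H3, which carries many of the regulatory marks of chromatin, had 3 of 5 tested members higher. That is too few for a share to be read beside the 15.3% of all genes tested. HIST1H3H (ENSG00000278828, chr6:27810064-27811300) was at 132, 119.7 and 95.2 FPKM with celastrol and 62.8, 68.2 and 68.4 with DMSO, 1.74-fold higher (log2 fold change 0.78, SE 0.12, limma adjusted p = 0.00316). HIST1H3B was at 27.9, 26.4 and 20.5 FPKM against 10.3, 17.7 and 15.9 (log2 fold change 0.79, SE 0.20, limma adjusted p = 0.0243). HIST2H3D was at 7.55, 9.82 and 5.35 FPKM against 5.24, 4.34 and 3.27 (log2 fold change 0.79, SE 0.24, limma adjusted p = 0.0402), the one HIST2 gene called. All 3 had groups that did not overlap, by a narrow margin for HIST2H3D, whose lowest celastrol and highest DMSO values were 5.35 and 5.24 FPKM. Without celastrol replicate 1 or 2 HIST1H3B and HIST2H3D lost their calls, and HIST2H3D also without DMSO replicate 2 or 3 (adjusted p up to 0.0871 and 0.132 over all settings). Of the 50-base windows, 80.4% of those of HIST2H3D are shared with other genes. HIST1H3J (2.59 ± 0.774 against 1.74 ± 0.62 FPKM; limma adjusted p = 0.18) and HIST1H3E (2.01 ± 0.311 against 2.03 ± 0.21 FPKM; 0.94) did not pass.

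H4 genes mostly encode one and the same protein. HIST1H4I (ENSG00000276180, chr6:27138588-27139881) was the most abundant, at 92.8, 79.4 and 75.4 FPKM with celastrol and 59.6, 68.9 and 60.6 with DMSO, without overlap (log2 fold change 0.39, SE 0.10, limma adjusted p = 0.023). It lost the call in 5 of 16 other settings, with adjusted p up to 0.0882, among them without celastrol replicate 1 or 2 and without DMSO replicate 1 or 3. HIST1H4C was at 2.91, 1.94 and 3.14 FPKM with celastrol and 0.798, 0.512 and 1.08 with DMSO (log2 fold change 1.65, SE 0.30, limma adjusted p = 0.00646), and it rests on 20, 14 and 23 reads against 5, 3 and 7. HIST1H4K was at 41.4, 28.8 and 26.5 FPKM with celastrol and 28.7, 30.2 and 29.3 with DMSO, with library 1 alone above the DMSO values (log2 fold change 0.10, SE 0.15, limma adjusted p = 0.648). Every window of HIST1H4K is shared with another gene.

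HIST1H4H (30.8 ± 1.99 against 25.4 ± 3.42 FPKM) had groups that did not overlap and missed the threshold (log2 fold change 0.28, limma adjusted p = 0.0819). HIST1H4J (3.56 ± 1.58 against 2.3 ± 1.29 FPKM) had a log2 fold change of 0.62, HIST1H4E (8.4 ± 0.653 against 9.43 ± 1.68 FPKM) of -0.15 and HIST1H4D (3.72 ± 0.99 against 4.86 ± 1.81 FPKM) of -0.35, none of which passed. HIST2H4B had 16, 68 and 130 reads in celastrol libraries 1 to 3 and 67, 26 and 10 in DMSO libraries 1 to 3, a wide scatter within both groups (log2 fold change 0.73, SE 0.79, limma adjusted p = 0.516). Its near-identical copy HIST2H4A, under the minimum, had 18, 18 and 24 reads with celastrol and 8, 21 and 11 with DMSO.

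**Figure D3:**
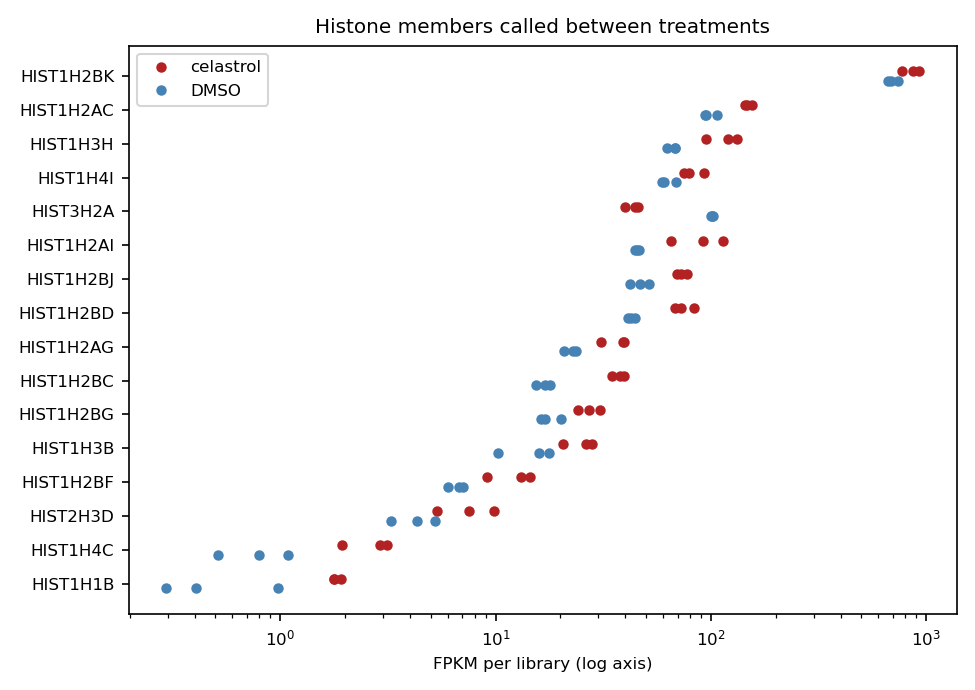
FPKM of the 16 histone genes with an adjusted p under 0.05 in each of the 6 libraries, on a log axis, with celastrol in red and DMSO in blue. The groups do not overlap for any of them; HIST3H2A is the gene whose DMSO values, 99.7 to 103, lie to the right of its celastrol values.

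Abundance was very uneven and set which members could be tested. The mean level ran from 1.19 FPKM, for HIST1H1B just inside the minimum, to 776 FPKM for HIST1H2BK, and HIST1H1T, at 0.930 FPKM, lay just outside it. HIST1H1C and HIST1H2BK alone held 40.5% of the 160615 histone reads, and the top 10 members held 82.5%. Among the 7 members with a mean of at least 1000 reads per library, 5 were higher. Among 15 members with 100 to under 1000 reads 7 were higher and 1 lower, and among 17 tested members with 10 to under 100 reads 3 were higher. Over all genes tested, 15.3% were higher and 14.2% lower, so 3 of 17 is near that share. A single tested member, HIST1H2AL, had under 10 reads on average, and it was not called. The median log2 fold change was 0.39, 0.49 and 0.38 from the highest to the lowest of the first 3 classes.

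**Figure D4:**
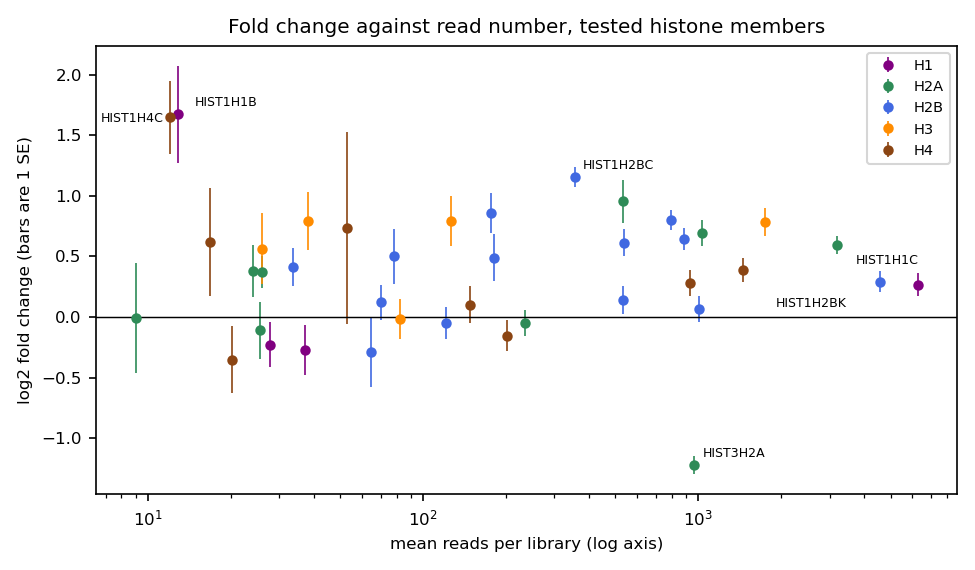
Log2 fold change with 1 SE against mean reads per library on a log axis for the 40 tested histone genes, coloured by type. The 2 largest fold changes, of HIST1H1B and HIST1H4C at 1.67 and 1.65, belong to genes with 12 to 12.8 mean reads, and HIST1H2BC at 1.15 has 355.

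Histone reads were also higher without the top pair of genes. Without HIST1H1C and HIST1H2BK the other 69 members summed to 1229 ± 95.9 against 859 ± 53.6 RPM (mean ± SD, n = 3 each), 1.43-fold higher with celastrol. Within celastrol, library 1 was the highest library for 24 of the 40 tested members and for 10 of the 15 called higher. Without celastrol replicate 1, 10 members were higher and 1 lower, and without celastrol replicate 3, 17 and 1. Of the 16 called members, 11 kept their call in every other setting run.

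Below the minimum were 31 members, 24 of them with reads, which together held 492 reads in all 6 libraries, or 0.306% of the histone total. The 3 of most reads were HIST2H4A with 100 reads, HIST1H1T with 61 and HIST3H3 with 38. By type, total reads over the 6 libraries were 17 to 61 for 2 H1 genes, 2 to 26 for 6 H2A genes and 1 to 28 for 3 H2B genes. They were 6 to 38 for 7 H3 genes and 1 to 100 for 6 H4 genes. The testis-type members HIST1H1T, HIST1H2AA, HIST1H2BA and HIST3H3 summed to 1.25, 1.14 and 0.863 RPM with celastrol and 1.2, 1.33 and 0.973 with DMSO, overlapping groups. The 7 members without a read were HIST1H2AD, HIST1H2AK, HIST1H2BI, HIST1H3D, HIST1H3I, HIST2H3PS2 and HIST4H4, and a count of 0 allows up to 3 reads per library, for counting error only. Other annotated genes cover over 97% of the exons of 4 of these, and for such genes the value of 0 does not show whether RNA was present. AL031777.3, the gene over HIST1H3D and HIST1H2AD, was itself at 3.68 ± 0.427 FPKM with celastrol and 2.9 ± 0.0905 with DMSO and did not pass (limma adjusted p = 0.0596).

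The widest gap between HIST1 members, chr6:26285639-27125896, divides the cluster. Before it, 7 of 17 tested members were higher and sums were 1.43-fold higher, and after it 7 of 15 and 1.48-fold. In all, 14 of 32 tested HIST1 genes were higher and none lower, against 1 of 6 higher for HIST2 and 1 of 2 lower for HIST3. Over all genes tested 15.3% were higher and 14.2% lower, so the HIST2 count is near that share and is no result about HIST2 calls. The HIST2 sums were 98.6 ± 9.96 against 80.2 ± 3.45 RPM (mean ± SD, n = 3 each), without overlap. The difference between clusters was not tested.

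Many H2A and H2B genes stand head to head around a short stretch of DNA. Annotated starts within 500 bases of each other on opposite strands formed 12 pairs of members, 11 of them H2A with H2B, and in 6 of these both genes were tested. Both neighbours were higher in 2 pairs: HIST1H2BC with HIST1H2AC (log2 fold changes 1.15 and 0.59) and HIST1H2BJ with HIST1H2AG (0.64 and 0.69). In the other 4 one neighbour passed. HIST1H2BG was higher at 0.61 while HIST1H2AE stood at -0.046, HIST1H2AI was higher at 0.95 with HIST1H2BL at 0.41, and HIST1H2BK at 0.29 was beside HIST1H2AH at -0.11. HIST3H2A was lower at -1.22 and its neighbour HIST3H2BB, 234 bases away, stood at -0.29, from a level far below it (1.6 ± 0.359 against 2.02 ± 0.733 FPKM). Of all genes tested, 15.3% were higher and 14.2% lower, and 6 pairs are too few for a share to be read. The difference between neighbours was not tested.

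**Figure D5:**
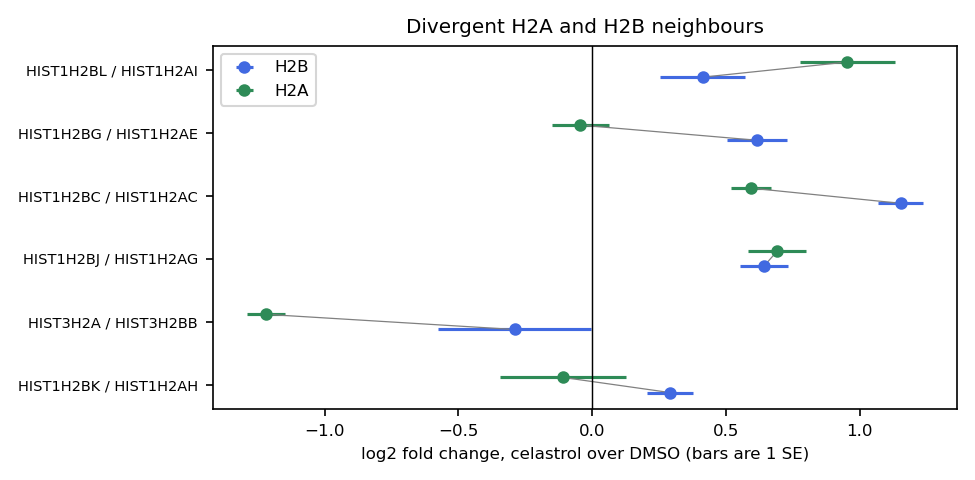
Log2 fold change with 1 SE for the 6 head-to-head pairs of 1 H2A and 1 H2B gene in which both were tested, a line joining neighbours. HIST1H2BJ and HIST1H2AG nearly coincide at 0.64 and 0.69, and HIST3H2A and HIST3H2BB lie at -1.22 and -0.29.

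The annotated 3′ end was compared because reads of a gene are counted over all its annotated exons. A model that ends past the stem-loop can also take reads that lie beyond it, from extended, polyadenylated RNA. A model that ends earlier can take reads of such RNA over the part it covers. The classes thus do not separate tailed from untailed RNA. HIST1H1C and HIST1H2BK, known for polyadenylated mRNA, are in the class with no stem-loop. Of 22 members whose model runs over 100 bases past the stem-loop, 17 were tested, with 7 higher and 1 lower. Of 9 whose transcript with the stem-loop ends within 100 bases of it, 7 were tested and 2 were higher. Of 40 with no stem-loop 16 were tested and 6 were higher. Over all genes tested, 15.3% were higher and 14.2% lower, and the difference between classes was not tested. Transcripts without the stem-loop did not count in placing a gene. HIST1H2BD, 1 of the 2 higher genes of the second class, has 2 transcripts and a model that runs on to chr6:26171349. It held 1143 of that class's 2471 reads in celastrol library 1. Summed RPM of every celastrol library lay above every DMSO library in each class, by 1.39-fold, 1.75-fold and 1.32-fold. The 5 members known for polyadenylated mRNA summed to 1202 ± 94.5 against 878 ± 34.5 RPM and 3 of them were higher (HIST1H2AC, HIST1H2BD and HIST1H2BK). Of 27 other genes whose RNA lacks a tail, 15 had no read in any library, and RN7SL2, the RNA of the signal recognition particle, was the single one to pass the minimum. RN7SL2 was at 475, 661 and 808 FPKM with celastrol and 1287, 439.9 and 383 with DMSO, scattered within both groups and in the range of the most abundant members, while the next, SNORD3A, had at most 15 reads. How far the histone reads come from tailed or untailed mRNA was not tested.

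Sequence shared between copies was measured in 50-base windows. The window length was a choice made here, and longer or paired reads could reach beyond shared sequence. The 47 members with under 10% of windows in other genes' transcripts had 26 tested, 12 higher and 1 lower, and their summed reads were 1.38-fold higher. The 24 members at or above 10% had 14 tested and 3 higher, with sums 1.36-fold higher. Over all genes tested, 15.3% were higher and 14.2% lower, so 3 of 14 is near that share and is no result about this class. The difference between the classes was not tested. The called genes HIST1H2BK, HIST1H2AI and HIST2H3D belong to the class at or above 10%. Those of their reads that lie wholly in shared sequence cannot be placed in 1 copy with certainty, and how such reads were counted is not given.

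Other genes of the pathway are given on the deposited scale and, where the balance turned, after rescaling to TPM, in which each library's values have the same total. Over all genes tested, 15.3% were higher and 14.2% lower as deposited, and 41.5% higher and 6.41% lower in TPM. Among 34 tested genes of 3′ processing and decay, 3 were higher and 2 lower, with a median log2 fold change of 0.026, and in TPM 18 were higher and 0 lower. Both deposited-scale counts are below the shares over all genes. LSM1, of the decay-promoting Lsm ring, rose (15 ± 1.27 against 9.42 ± 0.515 FPKM, log2 fold change 0.66), as did the uridylyltransferase TUT7 (7.24 ± 0.875 against 5.07 ± 0.49 FPKM, 0.50). LSM11, a protein of the U7 snRNP, fell (3.41 ± 0.28 against 4.63 ± 0.0126 FPKM, -0.43), as did ZFC3H1, a nuclear RNA decay cofactor (9.86 ± 0.468 against 12.6 ± 1.17 FPKM, -0.34). SLBP, which binds the stem-loop, was at 54.6 ± 1.65 FPKM with celastrol and 56.7 ± 7.69 with DMSO and did not pass (log2 fold change -0.048, limma adjusted p = 0.755). NPAT (5.5 ± 0.53 against 5.1 ± 0.618 FPKM; 0.506) and CASP8AP2, also of the histone locus body (5.45 ± 0.247 against 4.44 ± 0.675 FPKM; 0.0975), did not pass either.

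Of 18 transcription factors and regulators of histone genes, 1 was higher and 6 lower, where 15.3% and 14.2% of all genes were, but 7 were higher and 0 lower in TPM. The 7 are near the 41.5% of all genes higher in TPM and are no result about the list. NFYA, a subunit of the CCAAT-binding factor NF-Y, rose (14.3 ± 0.727 against 10.5 ± 0.129 FPKM, log2 fold change 0.44). POU2F1, which binds the octamer (3.64 ± 0.39 against 4.83 ± 0.195 FPKM, -0.40), and the cyclin CCNE1 (8.99 ± 0.257 against 11.9 ± 1.36 FPKM, -0.40) were among those that fell. Among 45 S phase genes 2 were higher and 10 lower, with a median of -0.098, but 14 were higher and 2 lower in TPM, both below the TPM shares over all genes (41.5% and 6.41%). The replication licensing factor CDT1 fell (70.3 ± 10.3 against 134 ± 8.51 FPKM, -0.94), as did the thymidylate synthase TYMS (23.7 ± 1.92 against 34.6 ± 1.6 FPKM, -0.55), the ligase LIG1 (14.7 ± 1.8 against 20.2 ± 0.76 FPKM, -0.46) and the DNA polymerase subunit POLE (13.3 ± 1.13 against 18 ± 1.62 FPKM, -0.43). The replication clamp PCNA (109 ± 4.66 against 103 ± 5.83 FPKM; limma adjusted p = 0.428) and the proliferation marker MKI67 (19.4 ± 2.02 against 18.5 ± 0.565 FPKM; 0.632) did not pass.

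The list of histone variants taken as replication-independent had 8 tested genes, 2 higher and none lower (6 and 0 in TPM), too few for a share to be read. These 2 were the centromeric H3 variant CENPA (18.2 ± 0.784 against 14.7 ± 1.2 FPKM, log2 fold change 0.31) and the DNA damage variant H2AFX (123 ± 6.87 against 103 ± 5.08 FPKM, 0.25). H3F3A (125 ± 1.99 against 114 ± 8.1 FPKM; limma adjusted p = 0.2), H3F3B (85.9 ± 1.14 against 86.9 ± 1.22 FPKM; 0.848) and H2AFZ (122 ± 7.81 against 133 ± 1.02 FPKM; 0.19) did not pass. Of 36 tested histone chaperones and importins, 1 was higher and 7 lower, where 15.3% and 14.2% of all genes were. In TPM 13 were higher and 4 lower, where 41.5% and 6.41% of all genes were. The chaperone NPM1 fell most (201 ± 11.3 against 342 ± 28 FPKM, -0.76), and the importins IPO5 (25 ± 2.34 against 39 ± 2.19 FPKM, -0.64) and KPNB1 (55.4 ± 2.45 against 75.8 ± 1.73 FPKM, -0.45) and the FACT subunit SSRP1 (42.5 ± 1.97 against 58.2 ± 4.21 FPKM, -0.45) fell too.

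The scaling of the libraries bears on these directions. The median of all genes tested was 0.023 as deposited, 0.26 after rescaling to TPM and 0.12 when scaled to listed reads. Higher calls were 52% of all calls as deposited, 86.6% in TPM and 70% with listed reads. Members had a median of 0.63 in TPM and of 0.48 with listed reads, so the gap between the medians of members and of all genes stayed near that of the deposited scale. In TPM 23 of the 40 tested members were higher and 1 lower, where 41.5% and 6.41% of all genes were, so the members' share of higher calls lay nearer to that of all genes than as deposited. With listed reads 19 were higher and 1 lower, where 23.8% and 10.2% of all genes were. The balance of calls in the other lists is therefore relative to the deposited scale.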

How the data were processed

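RNA was sequenced from SKM-1 cells after celastrol or DMSO, 3 libraries each, grouped by the sample titles. The authors deposited FPKM per gene and library beside the gene's length, biotype and coordinates. Alignment and counting tools were HISAT2 2.0.5 and featureCounts 1.5.0-p3 with GRCh38, per the submitters' processing notes. No source used here gives their settings or the library total behind the FPKM. Multiplying FPKM by length gave whole reads, to 0.001 of a read, for 100% of the values that were not 0, and these recovered reads were used. All 6 value columns were used. The total implied by the deposited FPKM was 1.04 to 1.05 times the listed reads for celastrol and 0.963 to 0.994 times for DMSO.

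Tests used limma 3.58.1 (trend) in R 4.3.3 on log2(FPKM + 0.1) with treatment as the single term, for genes with a mean of at least 1 FPKM, two-sided, with Benjamini-Hochberg adjustment over all genes tested and a threshold of 0.05. Fold changes on this scale understate the change of low genes, and the tests were tried on simulated data. Means ± SD and folds between means are of FPKM itself. Levels were compared between genes in FPKM and summed within types in RPM, reads per 1000000 reads listed for the library. All exon lengths of member genes equalled those of GENCODE 29. Stem-loops were sought in GENCODE 29 transcripts as 6 paired bases around a 4-base loop. The search required GG at the start, CC at the end and TTT as the first loop bases, with G:T pairs allowed in the inner pairs only. Promoters were matched to RefSeq by position.

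Members and gene lists were chosen with earlier results of these data known. Every tested member is named, with each library's value for called members and the 12 of highest level. From each other list up to 4 called genes are named by size of change or, with fewer than 2 called, the 2 of highest level, as well as SLBP, NPAT, CASP8AP2, H3F3A, H3F3B, H2AFZ, PCNA and MKI67. Some genes that this rule picks are not reported here. Alternatives were other pseudocounts, filters and scalings, limma-voom on recovered reads, a replicate block and leaving out each library. With 3 libraries a group, values far from the others were not tested for. No library repeated another: chi-square per gene of recovered reads was 4.01 to 13.4 within and 49.3 to 77.7 across treatments.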

Additional observations from a re-analysis of the deposited data

How the results depend on the processing

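The count of members lower, 1, was the same in all 16 alternatives, and 11 to 19 members were higher in those that kept all libraries, apart from TPM, which gave 23. Leaving out 1 library gave 10 to 17 members higher, the 10 without celastrol replicate 1. Over all genes, 5266 were higher and 813 lower in TPM, 3024 higher with listed reads and 3650 higher with limma-voom. Leaving out 1 library gave 1125 to 1937 higher and 987 to 1767 lower, with 1128 and 1129 without celastrol replicate 2, 1228 higher without celastrol replicate 3, and 1125 and 987 without DMSO replicate 3. The cause of these shifts was not tested. The log2 difference of summed FPKM in TPM was 0.58 for all members, 0.51 for H1, 0.47 for H2A, 0.61 for H2B and 0.53 for H4, against 0.33, 0.27, 0.23, 0.36 and 0.29 as deposited. Summed H2A reads of genes up to 1000 bases, which include HIST3H2A, were lower by a log2 difference of -0.24, and those over 1000 bases were higher by 0.72, against 0.42 for all H2A genes.

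Same-numbered libraries did not deviate together (correlations of -0.016, -0.033 and 0.034), and those of different numbers gave -0.028 to 0.041. The labels do not say how the numbers were assigned, so these values cannot decide whether the libraries were paired. With the replicate block 17 members were higher and 1 lower, and over all genes 1776 and 1617.

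The log2 fold changes that turned sign all belong to genes that were not called. In TPM they were 0.20 for HIST1H2AE, 0.19 for HIST1H2BO, 0.086 for HIST1H4E, 0.13 for HIST1H2AH, 0.0074 for HIST1H1D, 0.22 for HIST1H3E, 0.22 for HIST1H2AL, 0.11 for H2AFZ, 0.22 for H3F3B and 0.19 for SLBP. With listed reads they were 0.052 for HIST1H2AE, 0.047 for HIST1H2BO, 0.075 for HIST1H3E, 0.084 for HIST1H2AL, 0.081 for H3F3B and 0.050 for SLBP. With limma-voom they were 0.050 for HIST1H2AE, 0.047 for HIST1H2BO, 0.075 for HIST1H3E, 0.056 for HIST1H2AL, 0.081 for H3F3B and 0.052 for SLBP. Quantile normalization gave 0.011 for HIST1H3E, 0.051 for HIST1H2AL and 0.012 for H3F3B, and a pseudocount of 1 gave 0.035 for HIST1H2AL. Over the fits that leave out 1 library, the range was -0.16 to 0.027 for HIST1H2AE, -0.031 to 0.18 for HIST2H2BE, -0.14 to 0.11 for HIST1H2BO, -0.30 to 0.16 for HIST1H2AH, -0.11 to 0.10 for HIST1H3E, -0.34 to 0.53 for HIST1H2AL, -0.092 to 0.23 for HIST1H4K, -0.15 to 0.042 for SLBP and -0.25 to 0.63 for RN7SL2. Read number limits HIST1H1B, HIST1H4C, HIST1H4J and HIST1H2AL, which had under 10 reads in a library.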

Other observations

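Histone pseudogenes, which the naming rule leaves out by biotype, gave values of their own. HIST1H4PS1 was higher with celastrol, at 8.37, 8.64 and 6.96 FPKM against 4.72, 4.2 and 3.55 with DMSO (log2 fold change 0.93, SE 0.13, limma adjusted p = 0.00227), from 14 to 38 reads a library. HIST1H1PS1 was higher as well, at 1.67 ± 0.107 against 1.06 ± 0.0985 FPKM (log2 fold change 0.61, SE 0.19, limma adjusted p = 0.0456), from 8 to 16 reads. HIST2H2BC (3.72 ± 0.671 against 3.75 ± 0.127 FPKM), HIST2H2BD (2.22 ± 0.307 against 2.68 ± 0.515 FPKM), HIST1H2APS3 (8.33 ± 1.35 against 10.3 ± 3.7 FPKM) and HIST1H2APS5 (1.58 ± 0.866 against 0.645 ± 0.328 FPKM) did not pass. These genes were chosen after their values were seen.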
